A study of Homo sapiens with 9 samples.

Results

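MsOc3HBC and HBC530 are 2 ligands of the same scaffold, and the direct comparison of cells treated with one or the other uses 6 of the 9 RNA-seq libraries of the series. HBC530 is the fluorogenic dye HBC, which the Pepper aptamer, a light-up RNA tag, binds without a covalent bond. MsOc3HBC is HBC with a short alkyl handle that ends in a mesylate, a leaving group through which a guanine of the aptamer can be alkylated. The structural change under comparison is therefore the handle with its electrophile. All cells were HEK293T, an established human embryonic kidney line, and all were incubated for 5 h, with 10 µM HBC530 (3 libraries), 10 µM MsOc3HBC (3 libraries) or the vehicle DMSO (3 libraries, shown here only as levels). The study used this experiment to ask whether a reactive ligand disturbs endogenous mRNAs. Libraries were chosen by their treatment label and paired by their replicate number, and genes were tested if their raw count averaged over 10 in the 6 ligand libraries, which left 17095 of 57500 genes.

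A mammalian cell answers many kinds of stress by phosphorylating the translation factor eIF2 alpha. General translation then slows, while the transcription factor ATF4 is made and switches on genes for amino acid uptake, amino acid synthesis, tRNA charging and glutathione metabolism. Electrophiles are detoxified by a different route, in which they are conjugated to glutathione and the factor NRF2 raises antioxidant enzymes, and damaged proteins are handled by heat shock proteins under the factor HSF1.

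The ligand libraries held between 28056929 and 57257546 counts on genes. Replicate 3 of both ligands was the shallowest (34963314 with HBC530 and 28056929 with MsOc3HBC) and lay apart along the first principal component, at 35.2 and 43.2 against -18.5 to -3.68 for the other 7 libraries. Deviations from the treatment mean correlated between libraries of the same number (Pearson's r across genes of 0.202, 0.445 and 0.496 for replicates 1 to 3), so the ligands were compared within the 3 replicate pairs. Replicate 1 of HBC530, however, correlated better with replicate 2 of MsOc3HBC (0.348) than with replicate 1. The labels do not say what libraries of one number share. Replicates of a ligand correlated with r from 0.987 to 0.997 across genes, and genes are not independent replicates. Of 8 HEK293T markers, all were detected, with medians from 2.89 CPM (counts relative to library size, after TMM scaling) for PAX2 to 252.6 for VIM. Markers of blood, liver and endothelium were at or near 0 (PTPRC at 0 in every library, with medians of 0 for CD3E, 0.00952 for ALB and 0.0199 for PECAM1), whereas MYOD1 (0.287) and the collagen COL1A1 (27.6) were not at 0. The summed level of the 7 markers of other cell types was 27.7 to 37.1 CPM with HBC530 and 21.2 to 29.9 with MsOc3HBC, and its part in any result was not tested.

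The reactive ligand differed from the non-covalent one in many transcripts but by little. At an adjusted p under 0.05 by the quasi-likelihood test of edgeR, Benjamini-Hochberg adjusted, 1932 of the 17095 genes were called, which is 11.3% of those tested. Of these, 818 were higher with MsOc3HBC (4.79%) and 1114 lower (6.52%). The median size of the change among called genes was 0.25 on the log2 scale, and 95.2% of them changed by less than 0.5. A log2 fold change beyond 1 was called for 15 genes (0.0877% of those tested), 12 of them higher (0.0702%) and 3 lower (0.0175%), and 13 of the 15 had a mean raw count under 100. At the threshold of the study's methods, an adjusted p under 0.5 and a change of more than 1 on the log2 scale, there were 50 genes (0.292%) by edgeR. The study applied that threshold with DESeq2 to each ligand, with the vehicle as control. DESeq2 with the replicate block gave 2 genes at it for the comparison of the ligands. It gave an adjusted p for only 10135 of the 17095 genes, and low-count genes such as ULBP1 and GPER1 had none and could not be counted. For most of the transcriptome a large difference lay outside the interval. The 95% interval of the difference ran inside -1 to 1 for 91.4% of tested genes and inside -0.5 to 0.5 for 70.04%, with a median SE of 0.0770 and a median log2 fold change of 0.02.

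**Figure D1:**
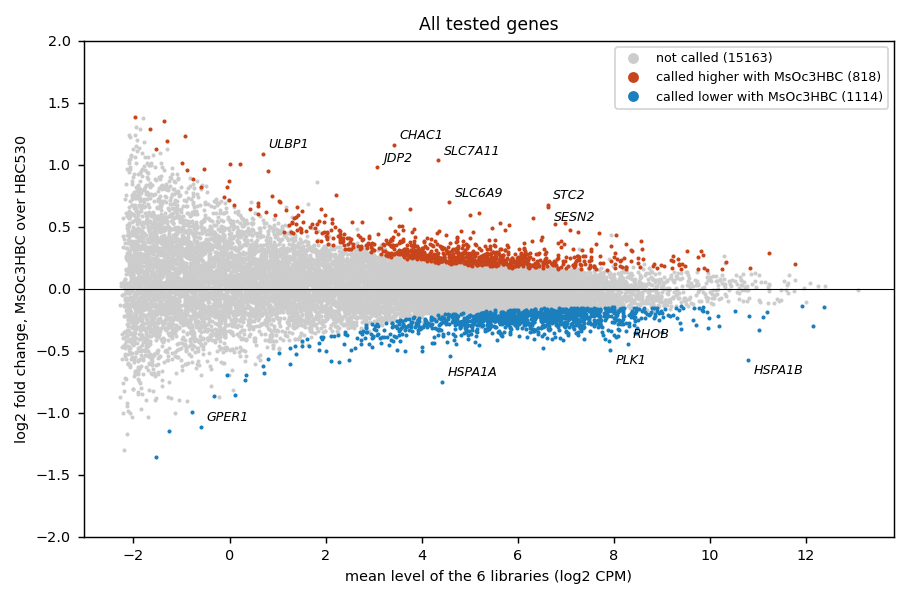
Log2 fold change of MsOc3HBC over HBC530 (vertical axis) against the mean level of the 6 ligand libraries in log2 CPM (horizontal axis), 1 point per tested gene. The 818 genes called higher and the 1114 called lower mostly lie within 0.5 of 0, while CHAC1, SLC7A11, JDP2 and ULBP1 stand above the genes of similar level.

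The number of calls depended on the pairing and on the treatment of GC content and gene length. Without the replicate block 0 genes were called by edgeR's quasi-likelihood test (1268 at an unadjusted p under 0.05, against 4702 with it), and with all 9 libraries in 1 blocked fit 9 were called. Leaving out replicate pair 2 left 80 genes higher and 109 lower, and leaving out pair 3 gave 1521 and 1959. Those 9 were CHAC1, SLC7A11, JDP2, STC2, SESN2 and SMC5, all higher with MsOc3HBC, and HSPA1A, HSPA1B and PLK1, all lower. Genes called higher had a median GC content of 40.5% over their exons and genes called lower of 60.2%, against 48.8% for all tested genes. From the 10% of genes with the lowest GC content to the 10% with the highest, the median log2 fold change fell from 0.15 to -0.16. The slope was present in each replicate pair, with medians in the lowest and highest 10% of genes of 0.08 and -0.09 in pair 1, 0.15 and -0.18 in pair 2, and 0.21 and -0.25 in pair 3. When each library's dependence on GC content and gene length was taken out in the same blocked fit, hereafter with trends removed, 312 genes were called (1.83%), 167 higher (0.977%) and 145 lower (0.849%), of which 242 had also been called in the same direction with the trends left in. Calls with these trends removed are therefore given beside the others. A set of 94 genes (0.55%), 46 higher and 48 lower, was called with the trends left in, with them removed and in each of the 3 fits that left out 1 replicate pair. The libraries of the ligands did not overlap for 75 of these 94, compared with 15.5% of all tested genes (6.89% higher and 8.62% lower). All 3 pairs differed in the same direction for 46.9% of tested genes and for 1923 of the 1932 called. Both the 94 and the 1932 were chosen by fits of these same libraries. Their lack of overlap and shared direction follow largely from that choice and are no separate support.

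**Figure D2:**
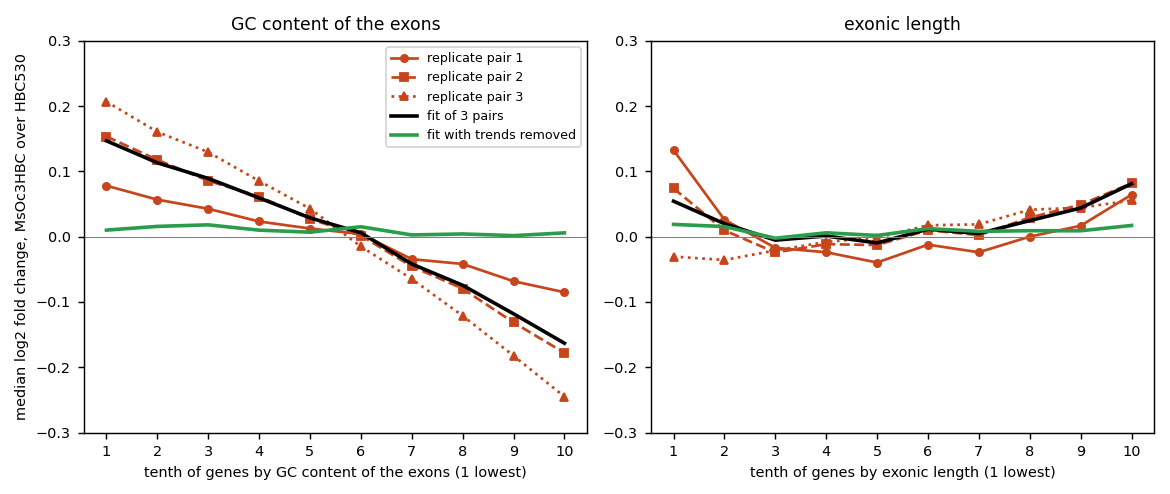
Median log2 fold change of MsOc3HBC over HBC530 in bins of 10% of the tested genes, ordered by the GC content of their exons (left) and by exonic length (right), for each replicate pair, for the fit of 3 pairs and for the fit with both trends removed. With GC content the 3 pairs fall together, most steeply in pair 3, and the line with trends removed stays near 0.

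Several of the smallest adjusted p-values belonged to transcripts of the ATF4 pathway and of glutathione and cystine. CHAC1 (chr15:40952962-40956519, GRCh38) encodes a cytosolic enzyme that breaks down glutathione and is a known target of the ATF4 pathway. Its level was 6.89, 6.29 and 6.56 CPM in replicates 1 to 3 with HBC530 and 13.7, 14.2 and 16.6 with MsOc3HBC. The ligands did not overlap, and DMSO lay below both at 2.29, 2.39 and 2.36. The log2 fold change of MsOc3HBC over HBC530 was 1.16 (adjusted p = 3.84e-05, SE 0.0850, the quasi-likelihood test of edgeR, Benjamini-Hochberg adjusted), and it was 1.29 with trends removed. SLC7A11 (chr4:138164097-138242349), the cystine importer that feeds glutathione synthesis, had 14.9, 13.8 and 11.3 CPM with HBC530 and 26.1, 32.9 and 22.9 with MsOc3HBC, again without overlap, and 10.4, 8.71 and 8.49 with DMSO. Its log2 fold change was 1.04 (adjusted p = 4.24e-05, SE 0.0819, or 0.88 with trends removed). Of the 12 tested genes of glutathione and cystine metabolism, 3 were called higher and 2 lower, and the median log2 fold change was 0.06. The third called higher was GGCT, a cyclotransferase of gamma-glutamyl amino acids, and the peroxidases GPX1 and GPX4 were called lower. With trends removed only CHAC1 and SLC7A11 were called. The genes of glutathione synthesis were not called, with 95% intervals of -0.03 to 0.22 for GCLC and 0.04 to 0.28 for GCLM.

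JDP2 (chr14:75427716-75474111), a bZIP repressor that pairs with the same partners as ATF3, had 5.58, 5.05 and 6.56 CPM with HBC530 and 10.2, 11.2 and 12 with MsOc3HBC. The ligands did not overlap, and DMSO had 3.75, 3.32 and 3.88. Its log2 fold change was 0.98 (adjusted p = 0.000143, SE 0.0897, or 1.04 with trends removed). ATF4 itself had 787, 763 and 965 CPM with HBC530 and 948, 926 and 1141 with MsOc3HBC, higher in each of the 3 pairs although the groups overlapped. Its log2 fold change was 0.27 (adjusted p = 0.00382, SE 0.0429, or 0.36 with trends removed). The increase in its partner CEBPG was 0.37 (adjusted p = 0.00272, SE 0.0521), and CEBPB (0.20), the stress cofactor NUPR1 (0.66) and the proapoptotic factor DDIT3 (0.42) were also called higher. DDIT3 overlaps the far more abundant MARS1 on the other strand and was at 0.36 and not called with trends removed.

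Of the 11 transcription factors and feedback regulators of the ATF4 pathway, 6 were called higher and 1 lower, with a median log2 fold change of 0.20 (5 higher and 0 lower with trends removed, median 0.32). The 1 called lower was ATF5 at -0.27, which was not called with trends removed. ATF3, an early target of ATF4, was not called. It had 59.1, 55.5 and 61.4 CPM with HBC530, 61.9, 62.6 and 62.5 with MsOc3HBC and 36.6, 35.6 and 33.2 with DMSO, and the 95% interval of its log2 fold change between the ligands was -0.02 to 0.21. The feedback genes TRIB3 (-0.30 to 0.00), PPP1R15A (-0.04 to 0.21) and PPP1R15B (-0.01 to 0.23) were not called either. Of 13 genes for the eIF2 alpha kinases and sensors of stalled ribosomes, 0 were called higher and 1 lower (median 0.04), or 7.69% beside 11.3% of all tested genes. That gene was ZNF598, a sensor of collided ribosomes, at -0.26, and it was not called with trends removed.

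**Figure D3:**
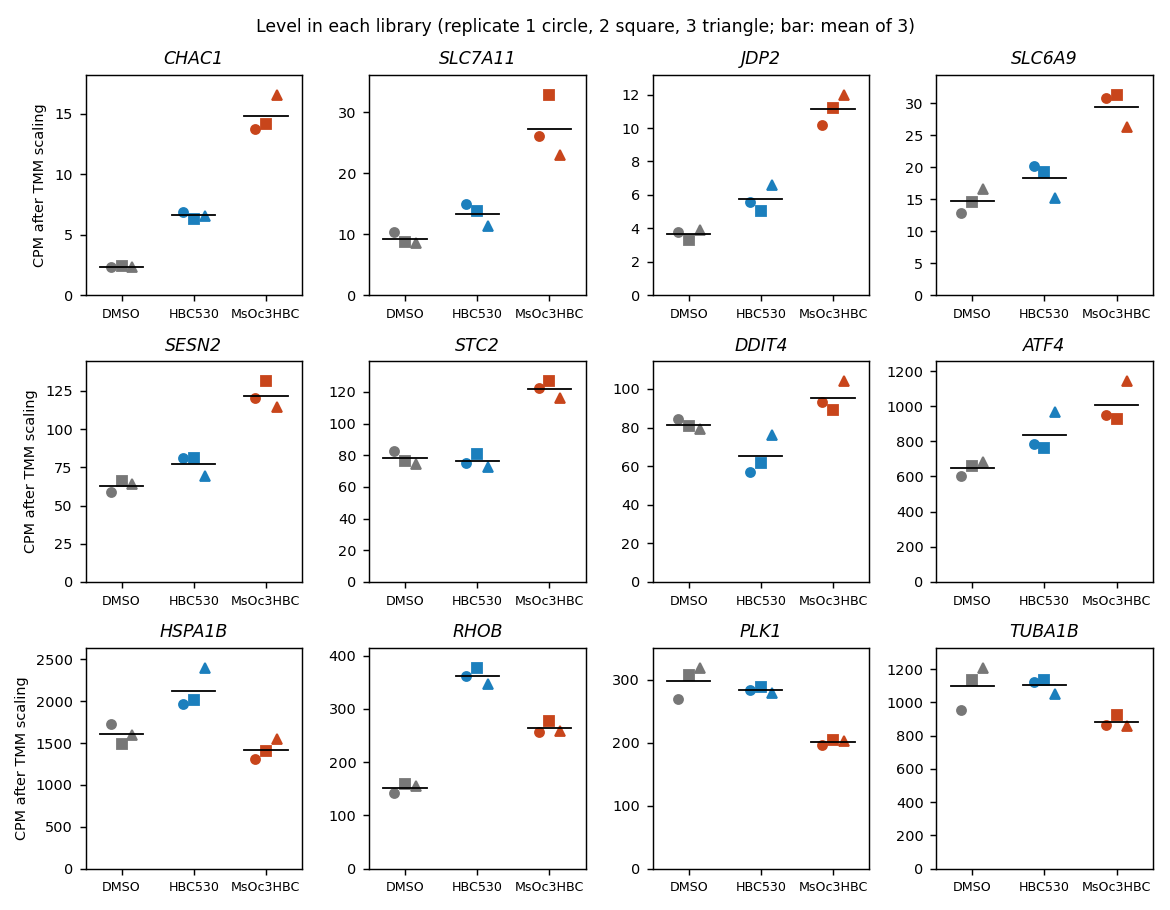
Level in CPM after TMM scaling (vertical axis, from 0) of 12 transcripts in each library, by treatment, with the replicate shown by the marker and the mean of 3 libraries as a bar. MsOc3HBC stands above HBC530 for CHAC1, SLC7A11, JDP2, SLC6A9, SESN2, STC2 and DDIT4 and below it for HSPA1B, RHOB, PLK1 and TUBA1B without overlap, and HBC530 lies between DMSO and MsOc3HBC in mean level for CHAC1 and ATF4 but not for DDIT4, HSPA1B or RHOB.

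Amino acid transporters formed the next group. Of 14 tested, 5 were called higher and 0 lower (median 0.09), and the same 5 were called higher with trends removed. Beside SLC7A11 these were the glycine transporter SLC6A9, the neutral amino acid transporters SLC38A1 and SLC38A2, and the cationic transporter SLC7A1. SLC6A9 had 20.2, 19.3 and 15.2 CPM with HBC530 and 30.8, 31.4 and 26.3 with MsOc3HBC, without overlap. Its log2 fold change was 0.70 (adjusted p = 0.000143, SE 0.0636, or 0.86 with trends removed). It overlaps CCDC24 on the other strand, which had a mean of 122.5 raw counts against 1078.5. SLC38A1 and SLC38A2 differed from SLC6A9 in their relation to DMSO. SLC38A2 had 96.6, 97.2 and 78.6 CPM with HBC530, 124, 140.1 and 124 with MsOc3HBC and 122, 97.9 and 93.2 with DMSO, and its log2 fold change between the ligands was 0.52 (SE 0.0578). For SLC38A1 it was 0.53 (SE 0.0568), with 146, 114 and 108 CPM in DMSO against 113, 118 and 81.2 with HBC530. The heavy chain SLC3A2, the partner of SLC7A11 in the membrane, was not called (-0.07 to 0.12), nor was the leucine transporter SLC7A5 (-0.04 to 0.18).

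Enzymes that make amino acids and one-carbon units were partly higher. Of 17 tested, 7 were called higher and 0 lower, yet the median log2 fold change was 0.02, close to that of all genes (6 higher and 0 lower with trends removed). CTH, which makes cysteine from cystathionine, had 30.6, 29.1 and 25.2 CPM with HBC530 and 36.7, 38.2 and 42.0 with MsOc3HBC, without overlap, and a log2 fold change of 0.46 (adjusted p = 0.00497, SE 0.0779). MTHFD2, a mitochondrial folate enzyme, had 226, 222 and 225 CPM with HBC530 and 276, 291 and 339 with MsOc3HBC, without overlap, and a log2 fold change of 0.43 (adjusted p = 0.00211, SE 0.0565). The serine enzyme PSAT1 (0.32) and the folate enzymes ALDH1L2 (0.32) and MTHFD1L (0.20), asparagine synthetase ASNS (0.20) and the alanine transaminase GPT2 (0.20) completed the group. ASNS was not called with trends removed, and ALDH1L2 overlaps NOPCHAP1. The other serine enzymes PHGDH (-0.18 to 0.02), PSPH (0.03 to 0.27) and SHMT2 (-0.10 to 0.09) were not called.

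Of 20 cytosolic tRNA synthetases, which charge tRNAs with amino acids, 5 were called higher and 2 lower (median 0.04). Those higher were GARS1 (0.25), TARS1 (0.23), CARS1 (0.20), NARS1 (0.19) and LARS1 (0.15). VARS1 and FARSA were called lower, at -0.28 and -0.21, and neither was called with trends removed, where CARS1, GARS1, TARS1 and AARS1 were higher and RARS1 lower. The largest difference in the list, that of VARS1, was 375, 368 and 310.4 CPM with HBC530 against 310.5, 324 and 237 with MsOc3HBC.

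Brakes on the growth kinase mTORC1 and secreted stress signals included 3 genes called higher in all 5 fits. SESN2, the leucine-sensing sestrin, had 81.4, 81.3 and 69.4 CPM with HBC530 and 120.3, 131 and 114 with MsOc3HBC. STC2, a secreted glycoprotein of the stanniocalcin family, had 75.4, 81.0 and 72.7 CPM with HBC530, 122, 127 and 116 with MsOc3HBC and 82.9, 76.4 and 74.8 with DMSO. Neither gene overlapped between the ligands. For STC2 the HBC530 libraries overlapped those of DMSO, with replicate 3 of HBC530 below every DMSO library. The log2 fold changes were 0.66 for SESN2 (SE 0.0510) and 0.68 for STC2 (SE 0.0480), each with an adjusted p of 3.84e-05 by the quasi-likelihood test of edgeR, Benjamini-Hochberg adjusted, and 0.79 and 0.73 with trends removed. DDIT4, an inhibitor of mTORC1, had 57.0, 61.6 and 76.4 CPM with HBC530, 93.3, 89.2 and 104 with MsOc3HBC and 84.5, 80.6 and 79.0 with DMSO, so every HBC530 library lay below, and every MsOc3HBC library above, those of DMSO. Its log2 fold change between the ligands was 0.57 (adjusted p = 0.000293, SE 0.0576, or 0.66 with trends removed). In all, 4 of 12 mTORC1 brakes were called higher and 2 lower (median 0.04, 2 and 0 with trends removed), the others being SESN3 (0.34), SESN1 (0.25), TSC2 (-0.28) and NPRL3 (-0.24). Of 5 tested secreted signals 2 were called higher and 1 lower (median 0.32, 2 and 0 with trends removed), with the angiogenic factor VEGFA at 0.32 and adrenomedullin, ADM, at -0.31. GDF15 was not called (0.00 to 1.07).

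The unfolded protein response serves chaperones and quality control of the endoplasmic reticulum. Of 20 genes, 4 were called higher and 1 lower (median 0.03, 3 and 0 with trends removed), or 25% beside 11.3% of all tested genes. DNAJB9, a cochaperone, had 9.39, 9.73 and 10.8 CPM with HBC530 and 12.8, 13.5 and 16.3 with MsOc3HBC, without overlap, and a log2 fold change of 0.51 (adjusted p = 0.00297, SE 0.0739). It overlaps THAP5 and PNPLA8 on the other strand. HERPUD1, which helps to export misfolded proteins, was higher by 0.39 (SE 0.0639), and EDEM1 and SEL1L of the same route by 0.26 each. The main chaperone HSPA5 was not called (-0.20 to -0.01), nor was XBP1 (-0.01 to 0.22).

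Together, the 7 lists on the ATF4 pathway, glutathione, amino acids, tRNA charging, mTORC1 brakes and secreted signals held 89 tested genes. Of these, 31 were called higher and 8 lower, with a median log2 fold change of 0.09 beside 0.02 for all genes. Of all tested genes, 4.79% were called higher and 6.52% lower. With trends removed 25 were called higher and 1 lower, beside 0.977% and 0.849% of all tested genes. The share called with the trends left in was 63.6% for ATF4 pathway factors, 41.7% for glutathione and cystine and 35.7% for transporters. It was 41.2% for synthesis enzymes, 35% for tRNA synthetases, 50% for mTORC1 brakes and 60% for secreted signals, beside 11.3% of all tested genes. Some of the 89 overlap genes on the other strand that hold many counts, among them ATF5 (NUP62) and TSC2 (NTHL1 and PKD1). The strand setting of the counting is not given in the sources used here. The lists were drawn up with earlier results of these data known, so that the counts describe the genes and are no independent evidence of a direction.

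To show the letters behind these groups, the promoters of tested genes were searched for the C/EBP-ATF response element TGATGNAA on both strands, the composite site that ATF4 and C/EBP factors are known to bind. The RefSeq promoter table (GRCh38.p14, 250 bases before to 50 bases after the start) held 11787 of the 17095 tested genes. The letters were found in 3.54% of promoters of genes called higher, 1.12% of those called lower and 1.61% of all, and in 7.46% of those called higher with trends removed. Among genes of the 7 lists with a promoter entry, 8 of 24 called higher held them (33.3%) and 8 of 46 not called higher (17.4%). Positions refer to the start in that table, which can lie inside the longest extent of a gene as given above for CHAC1. Windows of 30 bases before that start are shown for 4 genes called higher, with the match in capitals as it reads along the gene's strand.
CHAC1 (chr15:40953251-40953280, plus strand): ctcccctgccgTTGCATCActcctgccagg
HERPUD1 (chr16:56931955-56931984, plus strand): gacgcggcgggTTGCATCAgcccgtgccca
MTHFD1L (chr6:150866346-150866375, plus strand): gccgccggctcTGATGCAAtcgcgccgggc
ASNS (chr7:97872458-97872487, minus strand): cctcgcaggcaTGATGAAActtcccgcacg

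The same letters stood before the start of genes that were not called higher, shown here for contrast. PPP1R15B, ATF3 and GOT1 were not called, and TSC2 was called lower with the trends left in.
PPP1R15B (chr1:204412026-204412055, minus strand): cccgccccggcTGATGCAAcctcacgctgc
ATF3 (chr1:212565205-212565234, plus strand): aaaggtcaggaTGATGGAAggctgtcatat
GOT1 (chr10:99430804-99430833, minus strand): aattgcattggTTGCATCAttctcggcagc
TSC2 (chr16:2047864-2047893, plus strand): gccccgtcacgTGATGCAAggatcgccggc

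CARS1, NARS1, SLC38A1, SLC7A1 and TARS1, all called higher, held the letters across or after the start. So did MARS1 and SLC3A2 of the same lists, which were not called. A match describes the sequence and shows no binding. Among the other motifs searched, the antioxidant element TGACNNNGC was found in 14.5% of promoters of genes called higher, 16.95% of those called lower, 14.9% of all and 21.6% of those called higher with trends removed. The corresponding shares were 4.15, 3.57, 3.33 and 0.746% for the cyclic AMP element TGACGTCA and 3.23, 3.46, 4.27 and 2.99% for the AP-1 site TGANTCA.

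In the lower direction, a heat shock gene had the smallest adjusted p. Of 20 cytosolic and mitochondrial heat shock genes, 8 were called lower and 1 higher (median -0.12), and 5 lower and 0 higher with trends removed. The share called was 45% with the trends left in, beside 11.3% of all tested genes. HSPA1B (chr6:31827735-31830255), an inducible HSP70, had 1964, 2019 and 2392 CPM with HBC530, 1312, 1401 and 1548 with MsOc3HBC and 1730.2, 1490.0 and 1591 with DMSO. The ligands did not overlap, and HBC530 lay above all DMSO libraries. The log2 fold change between the ligands was -0.57 (adjusted p = 3.84e-05, SE 0.0433, or -0.47 with trends removed). The near-identical neighbour HSPA1A (chr6:31815464-31817946) had 25.5, 27.1 and 28.3 CPM with HBC530 and 15.5, 16.9 and 15.2 with MsOc3HBC, a log2 fold change of -0.75 (adjusted p = 0.000143, SE 0.0669). Counting of unique hits can split reads of these copies unevenly, so the 2 are not separate observations. HSPA8, the constitutive HSC70, had 2354, 2170.1 and 2451 CPM with HBC530 and 1709, 1782 and 2035 with MsOc3HBC, without overlap, a log2 fold change of -0.33 (adjusted p = 0.00289, SE 0.0482, or -0.32 with trends removed). The cochaperone DNAJB1 fell by 0.34 on the log2 scale (adjusted p = 0.00341, SE 0.0526), and it overlaps the abundant TECR. HSF1 (-0.27), BAG3 (-0.23), HSPB1 (-0.19) and FKBP4 (-0.16) were called only with the trends left in, and the mitochondrial HSPE1 was higher (0.18). HSP90AA1 (-0.13 to 0.06) and HSPD1 (-0.11 to 0.09) were not called, and HSPH1, not called with the trends left in, was called lower with them removed (-0.26).

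Immediate early genes are induced within minutes by growth factors and stress. Of 23 tested, 8 were called lower, 0 higher and 15 not called (median -0.19), but only RHOB and IER5 were called with trends removed. The share called was 34.8% with the trends left in, beside 11.3% of all tested genes. RHOB (chr2:20447074-20449445), a short-lived small GTPase, had 361, 376 and 346 CPM with HBC530, 256, 278 and 259 with MsOc3HBC and 142, 159 and 155 with DMSO. The 3 treatments did not overlap, and MsOc3HBC lay between DMSO and HBC530. The log2 fold change between the ligands was -0.45 (adjusted p = 0.000293, SE 0.0447, or -0.36 with trends removed). KLF2, a zinc finger factor, showed the same order at low counts. It had 5.28, 6.08 and 6.04 CPM with HBC530, 3.62, 3.67 and 4.30 with MsOc3HBC and 1.33, 2.54 and 2.5 with DMSO, and a log2 fold change of -0.59 (adjusted p = 0.00545, SE 0.104), which was -0.44 and not called with trends removed. The others called lower were IER3, JUNB, MYC, JUND and SRF, from -0.38 to -0.18. FOS (-0.86 to 0.22) and EGR1 (-0.32 to 0.25) were not called. Of 14 genes of MAP kinase feedback, 3 were called lower and 0 higher (median -0.16), namely SPRY1 (-0.39), DUSP7 (-0.24) and DUSP1 (-0.22), of which SPRY1 was called with trends removed. These 3 were 21.4% of the list, beside 11.3% of all tested genes. For SPRY1 the order was different. It had 12.6, 13 and 11.9 CPM with HBC530, 9.72, 9.74 and 9.01 with MsOc3HBC and 19.6, 18.8 and 18.5 with DMSO, so the reactive ligand lay farthest from the vehicle.

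Tubulins, the subunits of microtubules, were called in the lower direction only. Of the 12 genes tested for tubulins and their autoregulation, all 12 had a negative log2 fold change (median -0.21, the same in all 3 pairs), 7 were called lower and 0 higher, and 3 were called with trends removed. The 7 were 58.3% of the list, beside 11.3% of all tested genes. TUBA1B had 1123, 1137 and 1053 CPM with HBC530 and 863, 923 and 858 with MsOc3HBC, without overlap. Its log2 fold change was -0.32 (adjusted p = 0.00242, SE 0.0439, or -0.26 with trends removed), and that of TUBB6 was -0.30 (SE 0.0465). Tubulin genes are similar in sequence, so their counts are not fully separate, and TUBA1C, the third called with trends removed, also overlaps TUBA1A. The main beta-tubulin TUBB was not called (-0.18 to 0.03).

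PLK1 (chr16:23677656-23690367), a kinase of mitotic entry, had 285, 289 and 279.6 CPM with HBC530 and 196, 205 and 203 with MsOc3HBC. The ligands did not overlap, and DMSO, at 270.5, 307 and 319, reached the levels of HBC530. The log2 fold change was -0.49 (adjusted p = 0.000143, SE 0.0453, or -0.38 with trends removed). Of 23 genes of DNA replication and cell cycle, 6 were called lower and 0 higher (median -0.07), and 4 lower with trends removed, namely PLK1, the helicase subunit MCM5 (-0.29), cyclin B1, CCNB1 (-0.27), and the mitotic kinase AURKA (-0.25). The 6 were 26.1% of the list, beside 11.3% of all tested genes. MCM2 and MCM7 were called only with the trends left in. The proliferation marker MKI67 (-0.16 to 0.23) and the mitotic kinase CDK1 (-0.07 to 0.17) were not called. Poly(A) RNA of 23 replication-dependent histone genes gave 0 calls by edgeR, DESeq2 and limma-voom at a median of -0.19 (5 at an unadjusted p under 0.05 by edgeR) and 0 with trends removed, with wide intervals, for example -1.08 to 0.09 for H3C12. MAP1S, a microtubule-binding protein in none of the lists, fell by 0.48 on the log2 scale (adjusted p = 0.000412, SE 0.0505) and by 0.28 with trends removed.

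Further lists cover the handling of electrophiles and alkylation damage. Of 18 genes of the NRF2 response, 2 were called higher and 2 lower (median -0.04), or 22.2% beside 11.3% of all tested genes. With trends removed 0 were called, beside 1.83% of all tested genes. At that share a list of this size would hold few or no calls. This list does not hold SLC7A11 (1.04), which was counted with the cystine and transporter genes. NRF2 itself, NFE2L2, had a log2 fold change of 0.25 and thioredoxin, TXN, of 0.18, and the pentose phosphate enzyme TKT was at -0.16. The classical targets HMOX1 and NQO1 were not called. HMOX1 had 29.5, 28.5 and 28.3 CPM with HBC530 and 23.9, 22.6 and 28.2 with MsOc3HBC (interval -0.37 to -0.06), and NQO1 had 8.32, 8.19 and 9.14 against 8.20, 7.39 and 9.43 (-0.22 to 0.14). Of 15 glutathione transferases and conjugate exporters 0 were called by edgeR, beside 11.3% of all tested genes (3 at an unadjusted p under 0.05). DESeq2 and limma-voom each called 1 lower, and edgeR with trends removed called 0. Every interval of the list lay between -0.30 and 0.26. Of 19 genes for repair of alkylated nucleic acids, 0 were called higher and 1 lower, or 5.26% of the list beside 11.3% of all tested genes. That gene was the glycosylase MPG at -0.17, which was not called with trends removed, and every interval of the list lay between -0.28 and 0.40.

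Of 20 p53 targets, 4 were called higher and 0 lower (median 0.11), namely PMAIP1, SESN1, MDM2 and GADD45A, from 0.24 to 0.28, of which GADD45A was called with trends removed, as was BBC3, not called with the trends left in. The 4 were 20% of the list, beside 11.3% of all tested genes. The cell cycle inhibitor CDKN1A was not called (-0.20 to 0.05). The receptors and targets of dioxin-like ligands (8 tested), metallothioneins and zinc genes (5) and interferon genes (10) gave 0 calls each by edgeR, DESeq2 and limma-voom, with 1, 0 and 2 genes at an unadjusted p under 0.05 by edgeR, and 0 calls each with trends removed. Over all tested genes edgeR called 11.3%, and 1.83% with trends removed. Some intervals were wide at low counts, such as -1.64 to -0.02 for CYP1A1. Of 6 ligands of the immune receptor NKG2D, only ULBP1 was called (16.7% of them, beside 11.3% of all tested genes). It had 1.1, 1.12 and 0.911 CPM with HBC530 and 2.22, 2.71 and 1.65 with MsOc3HBC, without overlap, and a log2 fold change of 1.09 (adjusted p = 0.00322, SE 0.168, or 1.02 with trends removed). The other genes beyond 1 that carry a name were GPER1, a membrane estrogen receptor, at -1.11, and the noncoding RNAs and pseudogenes LINC02076, TARID, LCDR, NSRP1P1 and HMGB1P8, from -1.15 to 1.23. None of these 6 had a mean above 1.53 CPM with either ligand, LINC02076 alone was called with trends removed, and TARID overlaps the more abundant EYA4 on the other strand.

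In the metabolic and clock lists most calls were lower and were lost with trends removed. Most calls over all tested genes were lost as well, from 11.3% with the trends left in to 1.83% with them removed. The share called was 24% for hypoxia and glycolysis, 19.05% for sterol genes, 10% for fatty acid genes, 15.4% for glycogen and glucose-sensing genes and 20% for clock genes, beside 11.3% of all tested genes. Of 25 genes of hypoxia and glycolysis, 5 were called lower and 1 higher (median -0.09), and 1 each with trends removed, EGLN3, an oxygen-sensing hydroxylase (-0.33), and VEGFA (0.32). The glucose transporter SLC2A1 had 78.4, 80.8 and 69.5 CPM with HBC530, 60.2, 65.6 and 63.9 with MsOc3HBC and 98.3, 100.1 and 100.2 with DMSO, a log2 fold change of -0.26 between the ligands that was not called with trends removed. Of 21 sterol genes 3 were called lower (LSS and SREBF2 among them) and HMGCS1 higher, of 10 fatty acid genes FASN lower, of 13 glycogen and glucose-sensing genes GYS1 and PYGB lower, and of 15 clock genes DBP and BHLHE40 lower and NR1D2 higher, all between -0.34 and 0.26 and none called with trends removed. Of 14 genes of the YAP pathway TEAD4 was lower (-0.25) and LATS1 higher (0.23), and of 18 lysosome and autophagy genes CTSD was lower (-0.27), none of them called with trends removed. The share called was 14.3% for the YAP list and 5.56% for the lysosome list. BHLHE40, a clock repressor, had 31.1, 37.8 and 33.8 CPM with HBC530, 30.2, 25.9 and 26.7 with MsOc3HBC and 62.5, 56.8 and 55.9 with DMSO, so both ligands lay below every DMSO library.

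Among ribosomal protein genes, hosts of small nucleolar RNAs and splicing genes, more were called higher than lower. The share called was 15.4, 31.25 and 22.2% for these groups in turn, beside 11.3% of all tested genes. It was 9.09% for nuclear respiratory chain genes, 6.25% for proteasome genes and 7.69% for mitochondrial genome genes. Of 78 cytosolic ribosomal protein genes 11 were called higher and 1 lower (median 0.05, 6 and 0 with trends removed). RPL36A had 266, 263 and 467 CPM with HBC530 and 377, 336 and 565 with MsOc3HBC, higher in each pair with replicate 3 high in both ligands, and a log2 fold change of 0.38 (adjusted p = 0.00227, SE 0.0511). RPS27 had 0.27, and both have pseudogenes that can share their reads. Of 16 host transcripts of small nucleolar RNAs 5 were called higher and 0 lower (median 0.16), but the pair medians were 0.25, 0.17 and -0.01, and 0 were called with trends removed. Of 18 SR splicing factors and CLK kinases 3 were called higher and 1 lower, with SRSF5 (0.29) and CLK3 (-0.31) called with trends removed, and CLK3 overlaps EDC3. Of 33 nuclear genes of the respiratory chain 2 were called higher and 1 lower (1 and 1 with trends removed), and of 32 proteasome genes 0 higher and 2 lower (0 and 0). Among the 13 protein-coding genes of the mitochondrial genome the replicate pairs disagreed, with medians of 0.41, 0.01 and -0.31. The only one called, MT-ND4L, had 144, 113 and 123 CPM with HBC530 and 264, 157 and 119.8 with MsOc3HBC, so its difference came from pairs 1 and 2, it overlaps MT-ND4, and it was not called with trends removed. Without pair 3, 12 of the 13 were called higher. The share of counts on mitochondrial genes was 2.53, 2.04 and 2.89% with HBC530 and 3.5, 2.11 and 2.34% with MsOc3HBC, and its part in these calls was not tested.

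Of all 636 tested genes of the 36 lists, 67 were called higher and 64 lower, or 20.6% in all beside 11.3% of all tested genes. Counts in the lists moved with the replicate pairs used. Without pair 3 the heat shock list had 10 lower, the immediate early list 10, the tubulins 9, the cell cycle list 9, the hypoxia list 9 and the sterol list 7, and 10 snoRNA hosts and 16 ribosomal protein genes were higher. Without pair 2 these lists had 4, 1, 2, 2, 0 and 0 lower, and 0 snoRNA hosts and 2 ribosomal protein genes were higher. Of the amino acid transporters, 5 were higher without pair 2 and 5 without pair 3, with 1 lower without pair 3. Without pair 2, 2 ATF4 pathway factors, 2 glutathione and cystine genes and 4 synthesis enzymes were higher, against 6, 3 and 7 with all pairs. For tRNA synthetases, mTORC1 brakes and secreted signals the numbers were 0, 2 and 1, against 5, 4 and 2. Of the 94 genes called in all 5 fits, 28 belong to a list, 19 higher and 9 lower. Without pair 3, whose libraries lay apart, the log2 fold changes of CHAC1, SLC7A11, STC2, SESN2, HSPA1B and PLK1 were 1.08, 1.03, 0.67, 0.62, -0.56 and -0.52, and over all 14 alternative fits CHAC1 ranged from 1.08 to 1.29, SLC7A11 from 0.88 to 1.15 and HSPA1B from -0.60 to -0.47.

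**Figure D4:**
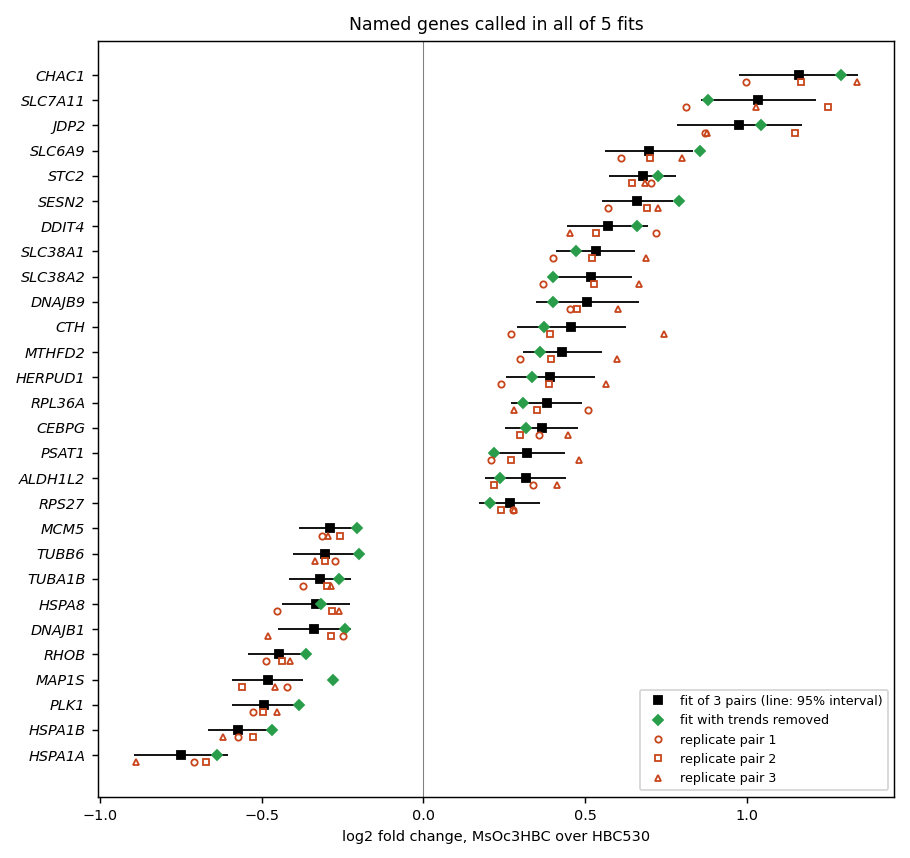
Log2 fold change of MsOc3HBC over HBC530 (horizontal axis) of the 28 named genes called in all 5 fits, with the fit of 3 pairs and its 95% interval (black), the fit with GC and length trends removed (green) and each replicate pair (red outlines). Every pair of every gene lies on the same side of 0, from CHAC1 at 1.16 to HSPA1A at -0.75. The genes were chosen by fits of these same pairs.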

How the data were processed

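RNA of HEK293T cells was sequenced as poly(A)-selected, paired-end libraries. Per the labels and the study's methods, the authors used Trimmomatic 0.36 for trimming and STAR 2.5.2b for alignment to GRCh38, and counted unique hits per gene with featureCounts (Subread 1.5.2), and the deposited values used here are these raw counts. The annotation release and strand setting are not given in the sources used here. Deposited tables of fold changes and p-values for each ligand against DMSO were not used.

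Libraries of MsOc3HBC and HBC530 were compared with edgeR 4.0.16 (R 4.3.3): TMM scaling, a quasi-likelihood test with the replicate number as a block, and Benjamini-Hochberg adjustment over all genes with a mean raw count over 10. A call is an adjusted p under 0.05. Intervals are 95% intervals of the fitted log2 fold change. Levels are CPM after TMM scaling over all 9 libraries, and log2 differences of pairs use a prior count of 1. Same-numbered libraries had correlated deviations (r of 0.202, 0.445 and 0.496), from which the pairing comes, although replicate 1 of HBC530 correlated better with replicate 2 of MsOc3HBC (0.348). Replicates are described as biological, without more detail. The p-values of the blocked fit measure how far the replicate pairs disagree in their difference between the ligands. They leave out the part of the spread between libraries that is shared within a pair. Dependence on GC content and gene length was modelled per library as natural splines with 5 degrees of freedom. The blocked fit was run on simulated counts with known changes. DESeq2 1.42.0 and limma 3.58.1 served as alternatives.

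Named were genes past a log2 fold change of 1, the 5 smallest adjusted p in each direction, the 4 smallest in each list, and the ATF4 pathway factors with CHAC1, which gave 108 genes. Other names were chosen after their values were seen. Members and lists were chosen with earlier results of these data known. Sequences come from RefSeq (GRCh38.p14). Values of a few list members are not reported here.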

Additional observations from a re-analysis of the deposited data

How the results depend on the processing

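The counts of called genes depended on the replicate block. Without the block, 0 genes were higher, 0 lower and 0 beyond a log2 fold change of 1, and 2 passed the threshold of the study's methods, compared with 818, 1114, 15 and 50 with it. With all 9 libraries and the block, 6 were higher, 3 lower and 2 beyond 1. With GC and length trends removed, 167 were higher, 145 lower and 4 beyond 1. DESeq2 with the block, which gave an adjusted p for 10135 genes, had 493 higher, 2 beyond 1 and 2 at the methods' threshold. Without a filter on low counts 26 genes lay beyond 1 and 352 passed the methods' threshold, with 10 counts required in every library 9 and 9, and with counts thinned to the smallest total 103 passed that threshold. Leaving out 1 replicate pair gave 80 to 1521 higher, 109 to 1959 lower, 6 to 86 beyond 1 and 89 to 133 at the methods' threshold. Other scalings, limma-voom and filterByExpr kept these counts within 1.5 times. Of 1500 values of named genes under the alternatives, 1128 kept direction and side of the threshold, 372 kept direction but were no longer past it, and 0 turned direction. The cause of these changes was not tested. Each ligand has 3 libraries, and 13 of the 15 genes beyond 1 had a mean raw count under 100.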

Other observations

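Of the 94 genes called in all 5 fits, 66 belong to none of the lists, and the following were chosen after their values were seen. SMC5, a subunit of a genome stability complex, had 31.0, 31.9 and 23.7 CPM with HBC530 and 44.5, 50.9 and 36.4 with MsOc3HBC, without overlap, a log2 fold change of 0.61 (0.47 with trends removed). NORAD, a cytoplasmic noncoding RNA that binds Pumilio proteins, had 118, 125 and 100.5 CPM with HBC530 and 159.7, 172 and 142 with MsOc3HBC, and a log2 fold change of 0.47 (0.40). XPOT, which exports tRNAs from the nucleus, was higher by 0.30 and the lipoprotein receptor VLDLR by 0.64.

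Among those lower, MAT2A, which makes the methyl donor S-adenosylmethionine, had 414, 409.8 and 387 CPM with HBC530 and 315, 319.9 and 304 with MsOc3HBC, without overlap, a log2 fold change of -0.36 (-0.40 with trends removed). It overlaps GGCX on the other strand. The mitotic genes CDC20 (-0.39) and AURKB (-0.34), the histone variant H2AX (-0.42) and the transcriptional coregulator CITED2 (-0.35) were lower as well.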
